A study of Mus musculus with 9 samples.

Results

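The 10 genes described here are sensors of double-stranded RNA and genes that interferon switches on: Ddx58, Ifih1, Dhx58, Eif2ak2, Oas1a, Mavs, Oasl2, Cxcl10, Xaf1 and Ifi35. They were chosen by name, with earlier results of these data known. Each was found by its symbol in the annotation of the array's probe sets, as 10 of the 19938 genes that a probe set names. Each of the 10 had 1 probe set of its own, and a further probe set annotated to both Oas1a and Oas1g was not used. The RNA came from mouse embryonic stem (ES) cells of genotype Dgcr8 -/-, which all 3 groups shared, and was measured on 1-colour microarrays. Dgcr8 is needed to process most microRNA precursors, so these cells make few mature microRNAs of their own. Per the labels, the let-7c group and the miR-294 group were transfected with 50 nM of a synthetic microRNA mimic (miRIDIAN) using the reagent Dharmafect 1, and the mock group was mock transfected. All 3 groups were kept without the cytokine LIF and harvested 12 h after transfection. Each group had 3 biological replicates, 9 arrays in all, and the p-values measure only the spread between these arrays, since the labels call the replicates biological without saying that they were separate cultures. No group received a mimic without a microRNA sequence, so in a comparison with mock the sequence of the mimic and the presence of transfected RNA cannot be told apart.

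Cells detect foreign RNA with a small set of proteins. The helicases RIG-I (gene Ddx58) and MDA5 (gene Ifih1) bind double-stranded RNA and signal through the mitochondrial adaptor MAVS, which leads to the transcription of interferon genes. Secreted interferon then acts through its receptors, JAK kinases, STAT proteins and IRF9 to raise the interferon-stimulated genes, among them the sensors themselves. ES cells are known for a weak interferon response compared with differentiated cells. The mimics are short double-stranded RNAs designed to act as a mature microRNA, which lowers transcripts that match its seed.

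The mature strands of the microRNAs are shown because their seeds (bases 2 to 8, in capitals) set the groups apart. The labels do not name the arm, so the strand taken as the mimic's is the arm known by these names. Both sequences are RefSeq's (GRCm38.p6), written 5′ to 3′. The let-7c strand is encoded at chr16:77599672-77599693 and again at chr15:85706616-85706637, and the miR-294 strand at chr7:3220691-3220712, all on the plus strand.
mmu-let-7c-5p: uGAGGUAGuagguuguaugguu
mmu-miR-294-3p: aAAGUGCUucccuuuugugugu
The seeds GAGGUAG and AAGUGCU differ.

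Values are given as deposited and were taken as log2 intensities, and a difference of 1 on this scale is a 2-fold change. Dim genes were left out: a gene was tested when it exceeded the 40th percentile of an array's probe sets (between 6.84 and 6.90) on 3 or more of the 9 arrays. Of the 10 genes, 8 passed and 2 did not, Ifih1 and Dhx58. Genes with an adjusted p under 0.05 (limma, Benjamini-Hochberg over the 13182 genes tested) are described as having risen or fallen. Each difference is given with its standard error (±, or SE), with n = 3 arrays a group. Both comparisons with mock use the same 3 mock arrays.

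Within each group the lowest correlation between a pair of arrays, across the tested genes, was 0.995 to 0.997. All 10 ES cell markers passed the filter on dim genes, and their mean lay between 11.97 and 12.02 on the mock arrays, 11.80 and 11.81 with let-7c, and 12.04 and 12.10 with miR-294. Of these 10 markers, 6 were lower than mock with let-7c, and 4 were higher and 1 lower with miR-294. Of 8 macrophage markers 2 passed the filter, and the list's mean lay between 6.54 and 6.61 with mock, 6.53 and 6.70 with let-7c, and 6.60 and 6.71 with miR-294, and limma called neither marker against mock at an adjusted or an unadjusted p under 0.05. Feeder fibroblast markers (6 of 10 passed) averaged 6.82 to 6.99 with mock, 6.88 to 7.13 with let-7c and 6.94 to 7.04 with miR-294, and 1 of them was called, higher with miR-294. Primitive endoderm markers (3 of 8 passed) averaged 6.52 to 6.63, 6.63 to 6.72 and 6.69 to 6.73 in the same order, with 1 higher in each comparison. Trophoblast markers (5 of 7 passed) averaged 7.92 to 8.06, 8.06 to 8.26 and 7.88 to 8.01, with 1 higher and 1 lower with let-7c. The part of these marker levels in the results below was not tested.

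With miR-294, the interferon-stimulated genes Xaf1, Ifi35 and Oasl2 and the kinase gene Eif2ak2 fell to between 51.1% (Xaf1) and 66.8% (Eif2ak2) of mock. Ddx58, Mavs, Oas1a and Cxcl10 did not pass the test with miR-294. Cxcl10 was dim with both mock and miR-294, so a fall could not have been seen. With let-7c, the sensor gene Ddx58 rose, Mavs and Oas1a fell, and the chemokine gene Cxcl10 lay above the 40th percentile with let-7c alone. Cxcl10 was tested only because of the let-7c arrays on which it is high, so it is left out of the counts that follow, which are over the other 7 tested genes. Of these 7, 4 were called with miR-294, where limma called 41.9% of all tested genes. These 4 fell (21.1% of all tested genes) and 0 rose, also 0 at an unadjusted p under 0.05 (20.7% of all tested genes rose). With let-7c 1 of the 7 rose (13.9% of all) and 2 fell (14.8% of all), where 28.7% of all tested genes were called. The median difference of the 7 was -0.58 with miR-294 and -0.01 with let-7c, against 0.02 and 0.02 over all tested genes.

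**Figure D1:**
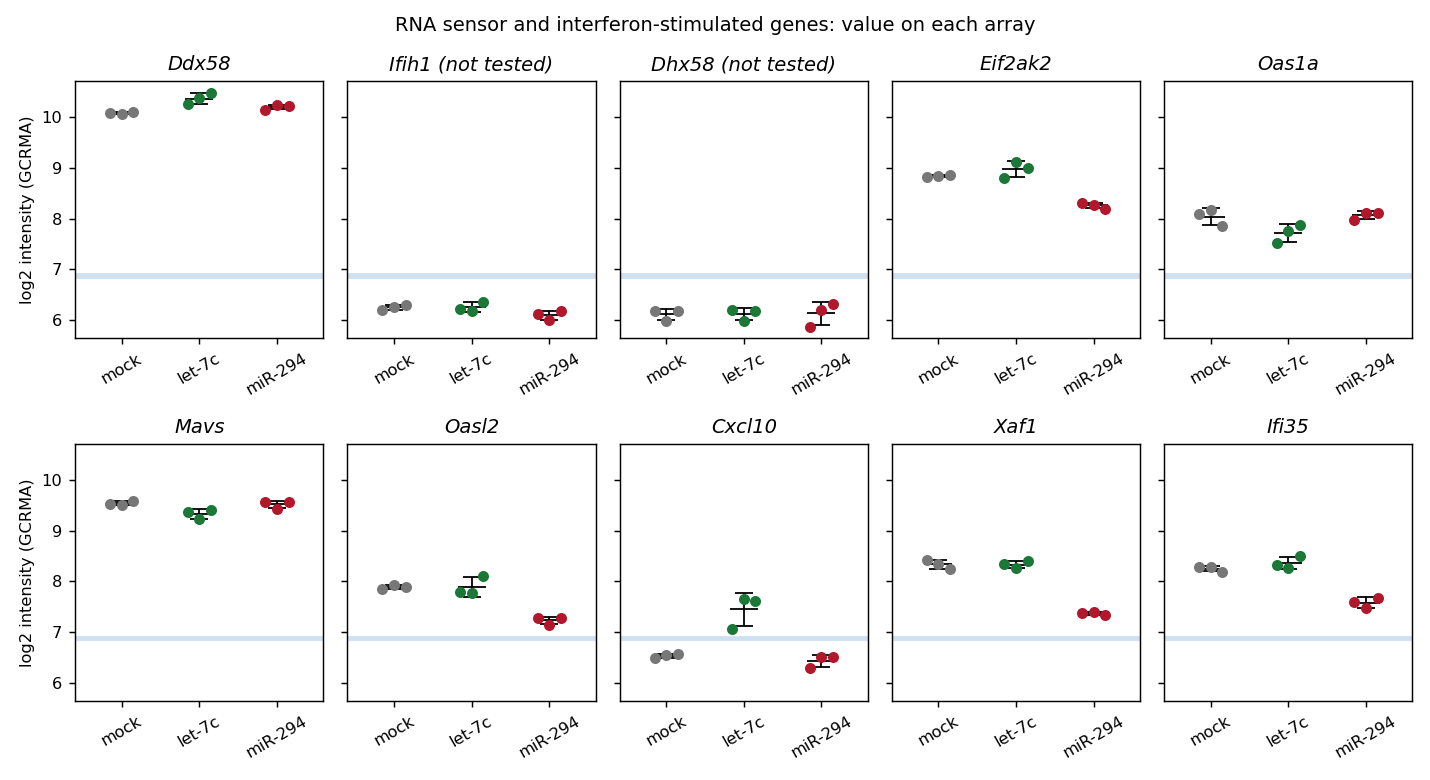
Log2 intensity (y axis) of each of the 10 genes on the 3 mock, 3 let-7c and 3 miR-294 arrays (points), with the group mean and SD (black), and the range of the arrays' 40th percentiles as a blue band. The miR-294 arrays sit below all mock arrays for Eif2ak2, Oasl2, Xaf1 and Ifi35, and also for Ifih1, whose arrays all lie below the band. Cxcl10 lies above the band only with let-7c.

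Among the sensors, Ddx58 (probe set 10512067) encodes RIG-I and was above the 40th percentile on all 9 arrays. It read 10.08, 10.08 and 10.12 on the mock arrays, 10.26, 10.38 and 10.49 with let-7c, and 10.16, 10.25 and 10.22 with miR-294. Every let-7c array lay above every miR-294 array, and every miR-294 array above every mock array. Against mock and with let-7c, Ddx58 rose by 0.28 ± 0.06 (adjusted p = 0.00421), to 121.7% of mock. With miR-294 the difference from mock was 0.12 ± 0.06 (adjusted p = 0.129; 95% confidence interval -0.01 to 0.24) and did not pass. The difference between the mimics was 0.17 ± 0.06, with an adjusted p of 0.0325. That call was lost when let-7c replicate 2 (0.0725), let-7c replicate 3 (0.133), miR-294 replicate 1 (0.101) or miR-294 replicate 3 (0.0583) was left out. It was lost also with no filter on dim genes (0.0620), with every probe set tested (0.0540) and with only the compared groups in the fit (0.0604), between 0.00506 and 0.133 over all alternatives.

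Ifih1 (probe set 10483110) and Dhx58 (probe set 10391207) lay below the 40th percentile on all 9 arrays. Dhx58 encodes LGP2, a relative of RIG-I and MDA5 without their signalling domains. Ifih1 read 6.20 to 6.29 with mock, 6.17 to 6.36 with let-7c and 5.99 to 6.18 with miR-294, where all arrays were below the mock arrays. Dhx58 read 5.98 to 6.17, 5.97 to 6.20 and 5.87 to 6.31 in the same order, so its groups overlapped. At such brightness an array cannot show whether a transcript is absent or low, and neither gene was tested.

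Eif2ak2 (probe set 10452980) encodes PKR, a kinase that binds double-stranded RNA and halts translation by phosphorylating eIF2α. It read 8.83, 8.84 and 8.86 on the mock arrays, 8.80, 9.12 and 9.00 with let-7c, and 8.31, 8.27 and 8.20 with miR-294. The miR-294 arrays were below all others, whereas the let-7c and mock arrays overlapped. With miR-294 Eif2ak2 fell by 0.58 on the log2 scale (SE 0.07, adjusted p = 6.42e-05), to 66.8% of mock. With let-7c the difference was 0.13 ± 0.07 (adjusted p = 0.191; 95% confidence interval -0.02 to 0.28). Without let-7c replicate 1, its lowest let-7c array, that difference passed (0.21, adjusted p = 0.0167, the lowest of the alternatives, which reached 0.538). Between the mimics, Eif2ak2 read higher under let-7c by 0.71 ± 0.07 (adjusted p = 7.26e-06).

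Oas1a (probe set 10533256) encodes an oligoadenylate synthetase, a sensor whose product activates the nuclease RNase L. Its values were 8.09, 8.17 and 7.86 with mock, 7.52, 7.77 and 7.88 with let-7c, and 7.98, 8.12 and 8.11 with miR-294. The let-7c and mock arrays overlapped, while every let-7c array was below every miR-294 array. With let-7c Oas1a fell by 0.32 on the log2 scale (SE 0.10, adjusted p = 0.0291), but the call did not survive leaving out let-7c replicate 1 (0.100), let-7c replicate 2 (0.0501), mock replicate 1 (0.0807) or mock replicate 2 (0.113). It was lost also with no filter on dim genes (0.0537) and with every probe set tested (0.0668), and the adjusted p ranged from 0.0126 to 0.113. Oas1a with miR-294 differed from mock by 0.03 ± 0.10 (adjusted p = 0.847; 95% confidence interval -0.19 to 0.24). Between the mimics it was lower with let-7c (-0.35 ± 0.10, adjusted p = 0.0107). The probe set annotated to both Oas1a and Oas1g did not show this fall: it read 8.35, 8.34 and 8.37 with mock, 8.23, 8.42 and 8.41 with let-7c, and 8.49, 8.52 and 8.40 with miR-294, and its let-7c arrays overlapped both other groups. Oas1 genes are related in sequence, so the reading of either probe set may include related transcripts.

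The adaptor gene Mavs (probe set 10476276) read 9.52, 9.52 and 9.59 with mock, 9.36, 9.23 and 9.40 with let-7c, and 9.57, 9.44 and 9.56 with miR-294. All let-7c arrays were below all others, and the miR-294 and mock arrays overlapped. With let-7c Mavs fell by 0.21 on the log2 scale (SE 0.06, adjusted p = 0.0186), a call lost when let-7c replicate 2 (0.0650) or mock replicate 3 (0.0682) was left out, between 0.00543 and 0.0682 over the alternatives. The difference between miR-294 and mock was -0.02 ± 0.06 (adjusted p = 0.805; 95% confidence interval -0.15 to 0.11). Set against miR-294, Mavs was lower under let-7c (-0.19 ± 0.06, adjusted p = 0.0161). Leaving out let-7c replicate 2 (0.0671), miR-294 replicate 1 (0.0543) or miR-294 replicate 3 (0.0555) lost this call, between 0.00427 and 0.0671 over the alternatives.

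Among the interferon-stimulated genes, Xaf1 (probe set 10378068), which encodes a pro-apoptotic partner of the caspase inhibitor XIAP, showed the largest fall of the 8 tested genes. Its mock arrays read 8.43, 8.34 and 8.24, its let-7c arrays 8.34, 8.26 and 8.39, and its miR-294 arrays 7.37, 7.40 and 7.34. The let-7c and mock arrays overlapped, while the miR-294 arrays lay below both, close together (SD 0.03). With miR-294 Xaf1 fell by 0.97 on the log2 scale (SE 0.06, adjusted p = 4.06e-07), to 51.1% of mock. With let-7c it differed from mock by -0.01 ± 0.06 (adjusted p = 0.944; 95% confidence interval -0.13 to 0.12).

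Ifi35 (probe set 10381408) encodes an interferon-induced protein that binds NMI. It read 8.28, 8.28 and 8.19 with mock, 8.33, 8.26 and 8.50 with let-7c, and 7.60, 7.48 and 7.67 with miR-294. Again the miR-294 arrays were the lowest and the other groups overlapped. With miR-294 Ifi35 fell by 0.67 on the log2 scale (SE 0.07, adjusted p = 2.41e-05), to 63.0% of mock, and its let-7c difference was 0.11 ± 0.07 (adjusted p = 0.260; 95% confidence interval -0.04 to 0.26).

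Oasl2 (probe set 10524621), an oligoadenylate synthetase-like gene, read 7.85, 7.92 and 7.90 with mock, 7.78, 7.76 and 8.11 with let-7c, and 7.27, 7.15 and 7.27 with miR-294. All miR-294 arrays lay below all others, and the let-7c arrays fell on both sides of the mock arrays, with replicate 3 highest. With miR-294 Oasl2 fell by 0.66 on the log2 scale (SE 0.08, adjusted p = 8.35e-05), to 63.2% of mock. The let-7c difference of -0.01 ± 0.08 (adjusted p = 0.970) had a 95% confidence interval of -0.19 to 0.18.

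Cxcl10 (probe set 10531415) encodes a chemokine that draws T cells and is a common readout of interferon and NF-kB activity. It read 6.49, 6.54 and 6.56 with mock and 6.29, 6.51 and 6.50 with miR-294, all below the 40th percentile, and 7.07, 7.66 and 7.62 with let-7c. All let-7c arrays were above all others, with replicate 1 lowest. Because its mock and miR-294 readings are dim, only a bound on the fold between group means can be given. With each dim array set to its 40th percentile, the let-7c mean of Cxcl10 was 1.52-fold above mock and 1.49-fold above miR-294. These bounds do not allow for the spread of the arrays, and the let-7c arrays had an SD of 0.33. The measured difference from mock was 0.92 ± 0.13 (adjusted p = 0.000446), but the gene reached this test only through its 3 let-7c arrays. With no filter, where all 19938 genes were tested, the adjusted p was 0.00115. Without any 1 let-7c array the gene did not pass the filter and was not tested. Its measured miR-294 difference from mock was -0.10 ± 0.13 (adjusted p = 0.568; 95% confidence interval -0.38 to 0.19). Both of these groups were dim on every array, so these values do not bound a fall of the transcript.

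**Figure D2:**
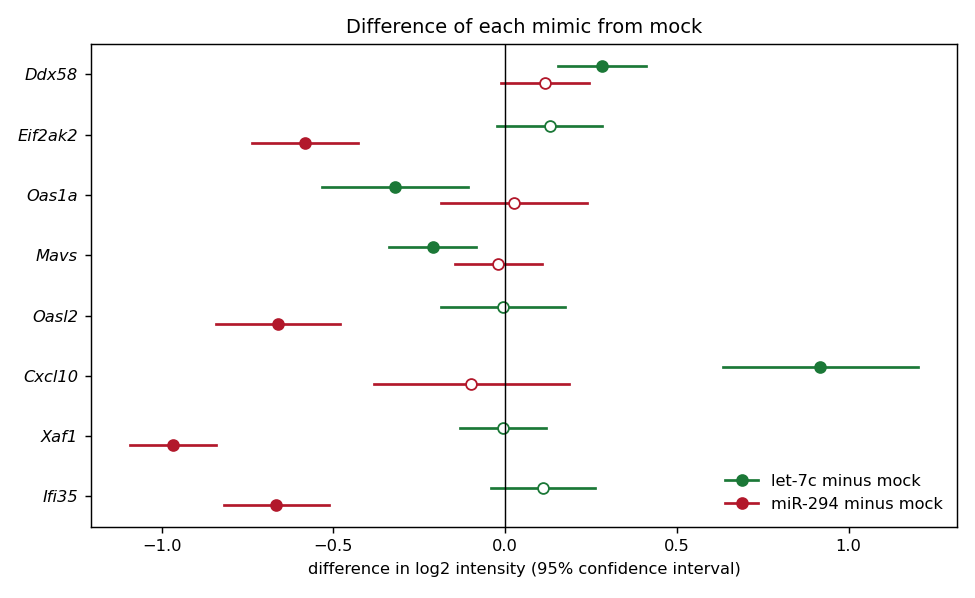
Difference in log2 intensity from mock (x axis) for the 8 tested genes with let-7c (green) and miR-294 (red), as the estimate and its 95% confidence interval; filled points have an adjusted p under 0.05. Xaf1 is the farthest below 0 (-0.97 with miR-294) and Cxcl10 the farthest above (0.92 with let-7c, measured against dim mock arrays).

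Compared directly, let-7c and miR-294 differed for the 7 tested genes other than Cxcl10, where 50.8% of all tested genes differed. Higher with let-7c were 5 genes (26.2% of all tested genes), and 2 were lower, Oas1a and Mavs (24.5% of all). The differences were 0.96 ± 0.06 for Xaf1 (adjusted p = 1.85e-07), 0.78 ± 0.07 for Ifi35 (adjusted p = 3.52e-06) and 0.66 ± 0.08 for Oasl2 (adjusted p = 4.72e-05). Both groups had received a mimic at 50 nM. The median difference of the 7 was 0.66, against -0.01 over all tested genes.

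The other genes of the pathway were taken from lists, and members are left out of the counts that follow. These lists too were chosen with earlier results of these data known, so their counts are a description. Of 6 further tested sensors, 4 fell with miR-294 (21.1% of all tested genes did): Zbp1 (-1.02 ± 0.11), Oas1c (-0.71 ± 0.08), Oas2 (-0.44 ± 0.07) and Oas3 (-0.25 ± 0.06). Oas2 and Oas3 are outside the rule for named genes and were named after their values were seen. Zbp1 encodes a sensor of left-handed double-stranded nucleic acid that can start necroptosis. Adar, which encodes an enzyme that edits double-stranded RNA, rose (0.19 ± 0.05; 20.7% of all tested genes rose). The list's median was -0.34 with miR-294. With let-7c Oas1c fell (-0.34 ± 0.08; 14.8% of all tested genes fell) and limma called 0 rises (0 at an unadjusted p under 0.05, and 1 adjusted without let-7c replicate 2), with a median of -0.01.

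Of 16 tested genes for receptors and transducers of the interferon signal, 8 fell, 2 rose and 6 were not called with miR-294 (median -0.26; 21.1% of all tested genes fell and 20.7% rose), and 1 rose without miR-294 replicate 3 or mock replicate 2. Irf9, a DNA-binding subunit of the interferon-activated transcription complex, fell by 1.04 on the log2 scale (SE 0.05, adjusted p = 2.22e-07). Irf1, a transcription factor gene of the same family, fell by 1.00 (SE 0.08), the interferon gamma receptor gene Ifngr2 by 0.85 (SE 0.07) and the kinase gene Jak2 by 0.82 (SE 0.10). Ptpn11 (0.43 ± 0.05) and Socs1 (0.16 ± 0.05), which encode a phosphatase and an inhibitor of JAK signalling, rose. With let-7c 5 rose and 1 fell (median 0.04; 13.9% and 14.8% of all tested genes), and 2 fell without let-7c replicate 3. The rises were led by Jak2 (0.64 ± 0.10), Ifngr2 (0.49 ± 0.07), Irf2 (0.43 ± 0.06) and Socs3 (0.24 ± 0.07), and the kinase gene Tyk2 fell (-0.41 ± 0.09).

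In the pathway around Mavs, 7 of 20 tested genes fell and 0 rose with miR-294 (limma, median -0.10; 21.1% and 20.7% of all tested genes), and 9 fell and 0 rose at an unadjusted p under 0.05. The count that fell was 4 when miR-294 replicate 1, miR-294 replicate 3 or mock replicate 2 was left out and with every probe set tested, and 1 rose without miR-294 replicate 1. Cyld, a deubiquitinase gene, fell most (-0.48 ± 0.05), followed by the PKR inhibitor gene Dnajc3 (-0.30 ± 0.07), the PKR activator gene Prkra (-0.25 ± 0.06) and the ubiquitin ligase gene Traf6 (-0.24 ± 0.06). With let-7c 6 rose and 2 fell (median 0.09; 13.9% and 14.8% of all tested genes). Sting1, the adaptor of DNA sensing, rose by 0.56 (SE 0.09), the ubiquitin-editing gene Tnfaip3 by 0.55 (SE 0.08), Tank by 0.51 (SE 0.07) and Cyld by 0.34 (SE 0.05). Trim25 (-0.43 ± 0.06) and Rnf135 (-0.24 ± 0.07), ubiquitin ligase genes that activate RIG-I, fell with let-7c. Both fell with miR-294 as well (-0.18 ± 0.06 and -0.19 ± 0.07). The count of 2 that fell with let-7c became 1 without let-7c replicate 2, mock replicate 2 or mock replicate 3.

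Of 28 further interferon-stimulated genes, 14 fell and 1, Ly6e (0.24 ± 0.09), rose with miR-294 (median -0.17; 21.1% and 20.7% of all tested genes). The count of rises was 0 without miR-294 replicate 3 or any 1 of the mock arrays and 2 without let-7c replicate 1. The falls were led by the ADP-ribosyltransferase genes Parp14 (-1.20 ± 0.13), Parp9 (-0.83 ± 0.07) and Parp12 (-0.68 ± 0.06) and by Dtx3l (-1.06 ± 0.07), a ubiquitin ligase gene that partners Parp9. With let-7c 6 rose and 3 fell (median 0.06; 13.9% and 14.8% of all tested genes). B2m, the light chain of MHC class I, rose by 0.51 (SE 0.10), Tdrd7 by 0.37 (SE 0.09), the peptide-loading gene Tapbp by 0.35 (SE 0.06) and Nmi by 0.31 (SE 0.09). Ly6e (-0.49 ± 0.09), Parp12 (-0.40 ± 0.06) and the antiviral gene Rsad2 (-0.22 ± 0.06) fell with let-7c. Rsad2 fell with miR-294 as well (-0.40 ± 0.06). Of 7 interferon genes listed, 5 were matched and 2, Ifna2 and Ifnl2, passed the filter. Ifna2 (0.12 ± 0.14 with let-7c, 0.16 ± 0.14 with miR-294) and Ifnl2 (0.08 ± 0.06 and 0.06 ± 0.06) did not pass the test in either comparison, adjusted or at an unadjusted p under 0.05 (limma).

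**Figure D3:**
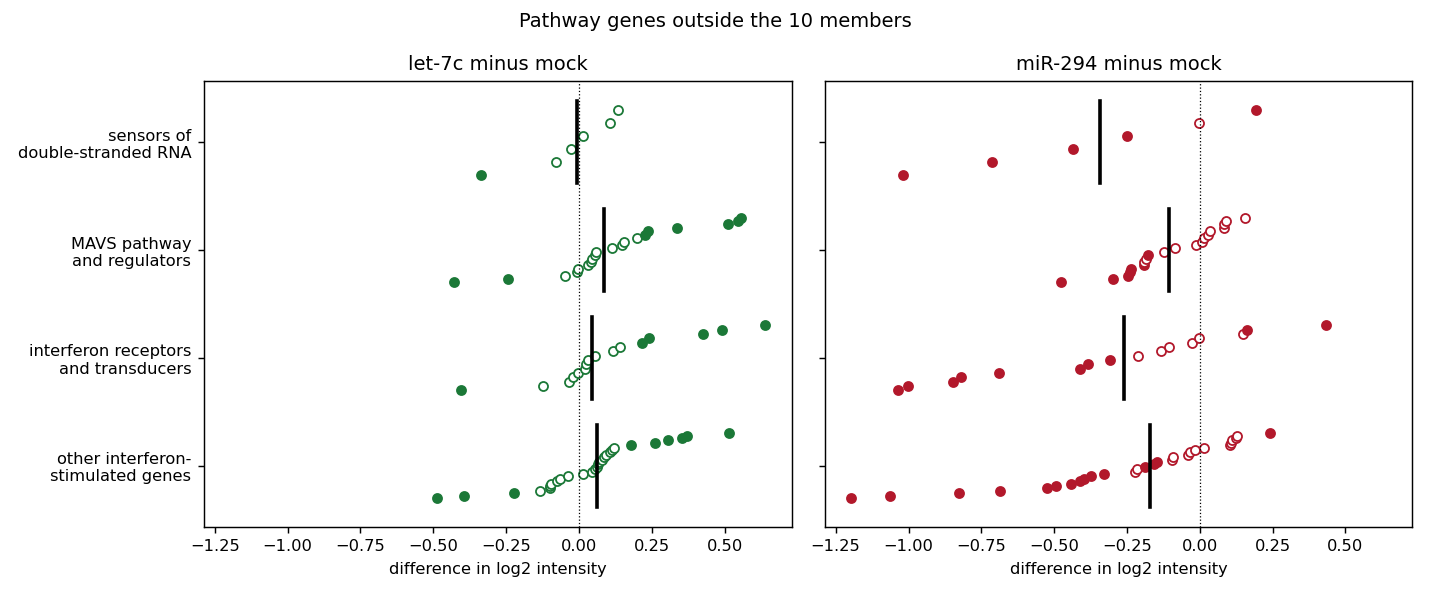
Difference in log2 intensity from mock (x axis) for tested pathway genes outside the 10 members, by list, with let-7c (left) and miR-294 (right); filled points have an adjusted p under 0.05 and black bars are list medians. With miR-294 the medians are -0.34, -0.10, -0.26 and -0.17 from top to bottom, and with let-7c they lie between -0.01 and 0.09.

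For each tested member, the non-member genes with the closest pattern over the 9 arrays were found by Pearson correlation, given as a description. Xaf1 was closest to Znfx1 (r = 0.998) and Ankrd52 (0.997), Ifi35 to Nfic (0.995) and Rab6a (0.994), Eif2ak2 to Nek7 (0.992) and Caml (0.990), and Oasl2 to Slc25a20 (0.987) and Zfp236 (0.986). Cxcl10 was closest to Lpar4 (0.987) and Sav1 (0.986), Ddx58 to Spry4 (0.969) and Snx3 (0.963), Mavs to Ogt (0.961) and Etfbkmt (0.959), and Oas1a to Pigu (0.953) and H4c6 (0.951). The 9 arrays fall into 3 groups, which these correlations share. Xaf1 and Znfx1 shared a mean with miR-294 below similar means with let-7c and mock: Znfx1 read 9.45 with mock, 9.47 with let-7c and 8.23 with miR-294.

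Because several members moved together, the stretch from 250 bases before to 50 bases after a RefSeq gene start (GRCm38.p6) was searched for 2 motifs on both strands. These were the interferon-stimulated response element, ISRE (GAAA, any 2 bases, GAAA), and the interferon gamma activated site, GAS (TTC, any 3 bases, GAA). The table held 9 of the 10 members. ISRE letters were found for 5 (Ddx58, Ifih1, Eif2ak2, Oas1a and Cxcl10) and GAS letters for 3 (Eif2ak2, Oas1a and Ifi35), and no ISRE match overlapped a GAS match. Of all 32851 promoters in the table, 3.44% held ISRE letters and 8.30% held GAS letters. ISRE letters were held by 1 of the 4 tested members that fell with miR-294, Eif2ak2. Of the members not called, Ddx58 and Oas1a held them and Mavs did not. Cxcl10 held them too, but it was dim with both mock and miR-294, so a fall could not have been seen. Among tested pathway genes, members included, 28.1% of those that fell and 24.2% of those not called, Cxcl10 among them, held ISRE letters. Over all tested genes these shares were 4.14% and 2.99%. For GAS letters the members' counts were 2 of 4 that fell and 1 of 4 not called, with Cxcl10 among the latter. The pathway shares for GAS letters were 21.9% and 24.2%. These differences were not tested. A match is a description of the letters and no evidence of binding.

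Cxcl10 is shown because its measured difference between let-7c and mock was the largest of the 8 tested genes, and Eif2ak2 because it is the sensor gene that fell with miR-294 and has both motifs. Each sequence is on the gene's strand, 5′ to 3′, with the matches in capitals. The Cxcl10 stretch covers the 250 bases before the start (chr5:92348890-92349139, minus strand), with ISRE letters from -213 to -204, where the start base is 0. The Eif2ak2 stretch likewise covers 250 bases (chr17:78882573-78882822, minus strand), with GAS letters from -178 to -170.
Cxcl10: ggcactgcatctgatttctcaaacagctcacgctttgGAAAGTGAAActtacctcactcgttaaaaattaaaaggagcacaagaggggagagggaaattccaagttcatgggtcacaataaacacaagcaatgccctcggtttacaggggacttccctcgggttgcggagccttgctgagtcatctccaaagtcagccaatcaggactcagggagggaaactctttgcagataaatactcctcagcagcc
Eif2ak2: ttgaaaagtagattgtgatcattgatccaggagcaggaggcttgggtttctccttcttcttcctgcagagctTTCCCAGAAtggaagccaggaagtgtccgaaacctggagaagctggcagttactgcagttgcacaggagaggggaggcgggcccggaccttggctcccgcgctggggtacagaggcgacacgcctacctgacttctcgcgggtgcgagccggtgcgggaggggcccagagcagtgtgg

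Matches at or just after the start are shown as 30-base windows, for the sensor gene that rose with let-7c and for members that fell with miR-294. The Ddx58 window is chr4:40239804-40239833 (minus strand) and holds ISRE letters on the opposite strand from 2 to 11. The Eif2ak2 window is chr17:78882535-78882564 (minus strand), with ISRE letters from 18 to 27. The Ifi35 window is chr11:101448409-101448438 (plus strand), with GAS letters from 7 to 15.
Ddx58: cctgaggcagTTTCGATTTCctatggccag
Eif2ak2: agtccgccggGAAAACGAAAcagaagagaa
Ifi35: agaagcagaaTTCACAGAAatgaaagtgga
Xaf1, with the largest fall, Oasl2 and Mavs held neither motif in the bases searched.

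**Figure D4:**
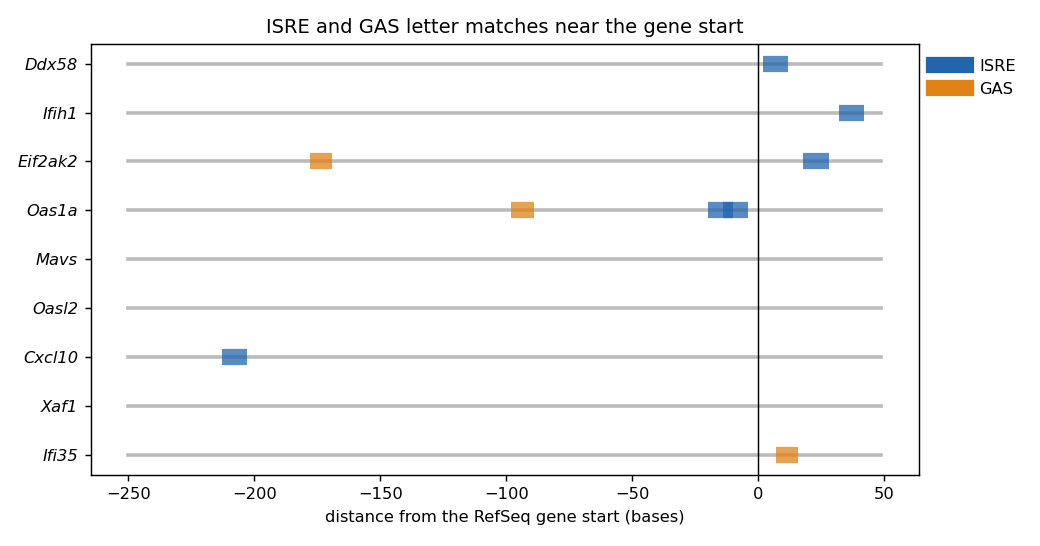
Positions of ISRE (blue) and GAS (orange) letter matches, as distance in bases from the RefSeq gene start (x axis), in the 9 members with a promoter in the table. ISRE matches lie at -213 for Cxcl10, at -20 and -14 for Oas1a and after the start for Ddx58, Ifih1 and Eif2ak2.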

How the data were processed

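The deposited table holds 1 log2 intensity per probe set and array (35557 probe sets, 9 arrays). The authors made these log2 values with GCRMA, per the submitters' processing notes, which corrects background, normalizes arrays and summarises probes; its settings are not given. No header states the scale, and log2 was taken from the range of the values (array medians 7.36 to 7.41). The number of arrays limits the precision. No pair of arrays shared more than 0.0309% identical values.

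Probe sets were named from GEO's annotation: 21789 had 1 symbol, 1621 several and 12147 none. Of the first, 21698 matched RefSeq by gene ID, with 0 symbols changed. The probe set with the highest mean stood for a gene. Differences were tested, two-sided, with limma 3.58.1 (lmFit, eBayes; R 4.3.3) in 1 fit of 9 arrays with 6 residual degrees of freedom, with Benjamini-Hochberg adjustment over 13182 genes. The fit and the motif search were tested on simulated data.

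Members and lists were chosen with earlier results of these data known. Named genes are the 10 members, up to 4 called genes per direction, list and comparison with mock, and the 2 closest in pattern to each tested member. Replicate numbers are those of the labels. Deviations from group means of same-numbered arrays correlated at 0.13 to 0.42 between mock and let-7c. The range was 0.27 to 0.36 between mock and miR-294 and 0.03 to 0.25 between let-7c and miR-294. Unlike-numbered arrays reached 0.15 (mock replicate 2 with let-7c replicate 3), above the 0.13 of replicate 3 of mock and let-7c. Same-numbered arrays thus tended to deviate together, but the main fit did not use the numbers. Its p-values and the shares of all tested genes are therefore unpaired. The closing section gives the effect of 10 alternatives; leaving out each of the 9 arrays in turn counts as 1 of them, so a gene has up to 18 refits. Drawings were made with matplotlib 3.10.9.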

Additional observations from a re-analysis of the deposited data

How the results depend on the processing

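The falls of Eif2ak2, Oasl2, Xaf1 and Ifi35 with miR-294 passed the threshold in every refit that tested them (limma), 18 each and 17 for Oasl2, and so did the rise of Ddx58 with let-7c (18). Cxcl10 was tested in 14 refits, not in those without a let-7c array or with the stricter filter, so its calls are no sign of stability. With the replicate number as a block, 2 members, Cxcl10 included, rose and 2 fell with let-7c, 4 fell and 0 rose with miR-294, and no member's call changed. Oas1a lost its let-7c call with no filter and with every probe set tested, while Mavs kept its call in both. With the stricter filter the member that rose with let-7c was Ddx58, and Cxcl10 was not tested there. With 1 array left out and Cxcl10 left aside, Ddx58 still rose with let-7c, and Eif2ak2 rose too without let-7c replicate 1. Over all tested genes, 1276 to 1880 rose with let-7c in these refits. The members that fell with let-7c ranged from 0 to 2 (1396 to 1965 of all tested genes). Those lower with let-7c than with miR-294 ranged from 1 to 2 (2922 to 3173 of all tested genes). Differences near 0 changed sign with 1 array left out: Oasl2 (-0.117 to 0.0553) and Xaf1 (-0.055 to 0.0389) with let-7c, and Oas1a (-0.0633 to 0.0923) and Mavs (-0.0426 to 0.0235) with miR-294. Mavs with miR-294 was also 0.0055 under quantile normalization and 0.0056 with 75th percentile centring. The cause of these changes was not tested. Dim signal limits Ifih1 and Dhx58, and Cxcl10 outside the let-7c arrays.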
